A study of Mus musculus with 45 samples.

Results

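Dach, Eya and Six-family proteins form a gene-regulatory network that acts upstream of and beside the myogenic factors in skeletal muscle. Described here are 8 of its genes, Six2, Six4, Six5, Eya1, Eya2, Eya3, Eya4 and Dach1, chosen by name from the 35675 genes of the deposited tables. All 8 passed the filter on low counts, which kept 17325 genes. Six-family proteins are homeodomain factors that bind DNA. Eya proteins do not bind DNA themselves but join Six-family proteins as co-activators and carry a phosphatase domain, and Dach proteins recruit co-repressors to the same complexes. In the embryo and in satellite cells, the muscle stem cells marked by the transcription factor Pax7, the network is known for its part in switching on myogenic genes and in setting the fast fibre type.

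The study followed mouse embryonic fibroblasts (MEFs) in which doxycycline (Dox) induces the muscle factor MyoD, and asked how cultures given MyoD alone differ from cultures given MyoD with F/R/C, a small-molecule mix whose letters the labels do not spell out. Every group carried the genotype Tg:Pax7-nGFP/C57BL6;DBA2, in which a nuclear green fluorescent protein reports Pax7. The 45 libraries fell into 15 groups of 3: untreated MEFs, MyoD alone on days 2, 4, 6, 8 and 10, MyoD with F/R/C on the same days, bulk induced myogenic progenitor cells (iMPCs) kept in F/R/C medium after 13 days of Dox with F/R/C, Pax7-GFP+ iMPCs sorted by flow cytometry, bulk primary myoblasts from skeletal muscle, and sorted Pax7-GFP+ myoblasts. Nothing in the labels says that the replicates came from separate animals or derivations, so the p-values measure the spread between these libraries. The bulk cultures mix cell types, and in them fewer cells of a type and less RNA per cell cannot be told apart.

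Poly(A) RNA was sequenced to between 15643670 and 36279316 assigned reads per library, and levels are given in TPM, which corrects for transcript length and library size, summed over the transcripts of a gene. Myod1 averaged 3.91 TPM in MEFs and reached a mean of 2490 after 2 days of MyoD alone, and Pax7 averaged 73.8 TPM in sorted iMPCs and 149 in sorted myoblasts against 0.0179 in MEFs. The labels call every MyoD-alone library myotubes. Differentiated muscle markers (Myog, Mymk, Ckm, Acta1, Tnnt3, Ttn and Actn2) summed to 11700 to 16900 TPM on day 2 of MyoD alone and to 79.1 to 131 in MEFs. These markers went against the sort in replicate 3 of the myoblasts: they summed to 19000, 9680 and 698 TPM in the bulk myoblasts and to 2230, 3710 and 9370 in the sorted ones. They also split the MyoD-alone cultures of day 10, with sums of 9430, 19200 and 6080 TPM. The 6 sorted libraries were quantified with another fragment-length setting than the other 39 (median length correction of 180.03 against 152.81 bases), so levels between sorted and bulk cells also differ in that setting.

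The genes lie, in GRCm38, at chr17:85684277-85688274 (Six2), chr12:73099609-73113456 (Six4), chr7:19094594-19098549 (Six5), chr1:14168954-14310235 (Eya1), chr2:165595032-165771727 (Eya2), chr4:132638987-132724765 (Eya3), chr10:23102963-23350786 (Eya4) and chr14:97786853-98169765 (Dach1). Six5, Eya2 and Eya3 are on the plus strand and the others on the minus strand. For Six5, Eya2 and Eya3 the summed reads were whole numbers (within 0.01) in every library, while for the other 5 genes part of the reads was divided with another gene. The genes in the tables that overlap a member, Gm37444 within Eya1 and Gm28163 opposite Eya2, held at most 1 and 0 reads in any library.

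The promoters of Eya4, Six4 and Six5 are shown because these genes differed from MEFs on day 2 of MyoD, the first 2 upward and the third downward. Each window runs from 250 bases before to 50 after the transcript start in RefSeq (GRCm38.p6), is written 5′ to 3′ on the strand of the gene, and has E-boxes (CANNTG, the class of site bound by MyoD, the same on both strands) in capitals. The Eya4 window lies at chr10:23349894-23350193 on the minus strand, the Six4 window at chr12:73113376-73113675 on the minus strand, and the Six5 window at chr7:19094294-19094593 on the plus strand.
Eya4: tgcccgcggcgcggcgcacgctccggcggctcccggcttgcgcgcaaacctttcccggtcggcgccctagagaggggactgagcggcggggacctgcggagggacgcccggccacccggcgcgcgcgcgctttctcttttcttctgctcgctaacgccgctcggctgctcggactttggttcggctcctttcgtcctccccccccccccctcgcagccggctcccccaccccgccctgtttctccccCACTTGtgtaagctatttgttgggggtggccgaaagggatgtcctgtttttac
Six4: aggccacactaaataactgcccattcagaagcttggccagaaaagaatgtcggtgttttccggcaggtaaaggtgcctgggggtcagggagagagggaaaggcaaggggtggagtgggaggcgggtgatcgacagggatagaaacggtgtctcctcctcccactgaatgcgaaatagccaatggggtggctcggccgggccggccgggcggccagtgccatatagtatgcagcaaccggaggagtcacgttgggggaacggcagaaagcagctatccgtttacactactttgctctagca
Six5: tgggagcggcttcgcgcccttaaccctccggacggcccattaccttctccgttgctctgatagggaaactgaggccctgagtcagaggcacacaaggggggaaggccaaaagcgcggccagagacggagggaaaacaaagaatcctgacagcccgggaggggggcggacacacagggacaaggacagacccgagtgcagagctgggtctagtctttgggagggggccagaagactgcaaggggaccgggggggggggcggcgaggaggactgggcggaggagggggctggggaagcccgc
The Eya4 window held 1 E-box, which spans the transcript start, and the Six4 and Six5 windows held none. Of the 6 genes with an entry in the promoter table, Eya3 also held 1 and Six2 and Dach1 none, while 72.3% of all 32851 promoter windows of this length held at least 1. No window of the 6 held CAGCTG, the E-box that MyoD prefers (counted on both strands and also counted as CANNTG), or TCAGGTT, the core of the MEF3 site bound by Six-family proteins, against 16.3% and 4.07% of all windows. These matches describe letters in a short window and say nothing of binding.

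Eya4, a co-activator gene linked to inherited hearing loss and cardiomyopathy, was the member that separated every MyoD-treated library from the MEFs. Its level was 1.762, 0.339 and 1.125 TPM in the 3 MEF libraries. The day 2 libraries held 33.478, 39.769 and 36.806 TPM with MyoD alone and 36.754, 44.920 and 30.188 with F/R/C. No MEF library overlapped any library of another group, where the lowest value was 12.182 TPM, in replicate 3 of MyoD alone on day 8.

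Against MEFs, Eya4 was higher on every day in both arms, by a log2 fold change of 4.78 to 5.43 with MyoD alone and of 5.29 to 5.79 with F/R/C. All of these passed edgeR's quasi-likelihood test with Benjamini-Hochberg adjustment over all 17325 genes (largest adjusted p = 7.4e-09). Called changed here means an adjusted p under 0.05 together with a change of 1 or more, up or down, on the log2 scale, and every adjusted p in the text comes from this fit of all 45 libraries unless another is named. Both arms were compared with the same 3 MEF libraries.

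Eya4 reached its highest group mean with F/R/C on day 4, at 49.0 ± 7.95 TPM (SD, n = 3). With MyoD alone its libraries spread widely late in the course: on day 10 they held 23.736, 39.125 and 13.326 TPM against 35.931, 47.732 and 40.903 with F/R/C. The arms overlapped on that day, and Eya4 was not called between them (log2 fold change 0.66, SE 0.41, adjusted p = 0.21). Without replicate 2 of MyoD alone, the library with the highest muscle-marker sum of that group, it was called higher with F/R/C (1.30, adjusted p = 0.024). Across the 15 group means, log2 levels of Eya4 and of the summed differentiated muscle markers had a Pearson r of 0.87, as a description over groups that share treatments and libraries. MEFs were the lowest group on both (1.08 and 109 TPM). Sorted iMPCs and day 10 of MyoD alone had like Eya4 means (26.3 and 25.4 TPM) at mean marker sums of 651 and 11600 TPM. Within day 10 of MyoD alone, the libraries had the same order in both. The part of the share of muscle cells in the Eya4 values was not tested.

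**Figure D1:**
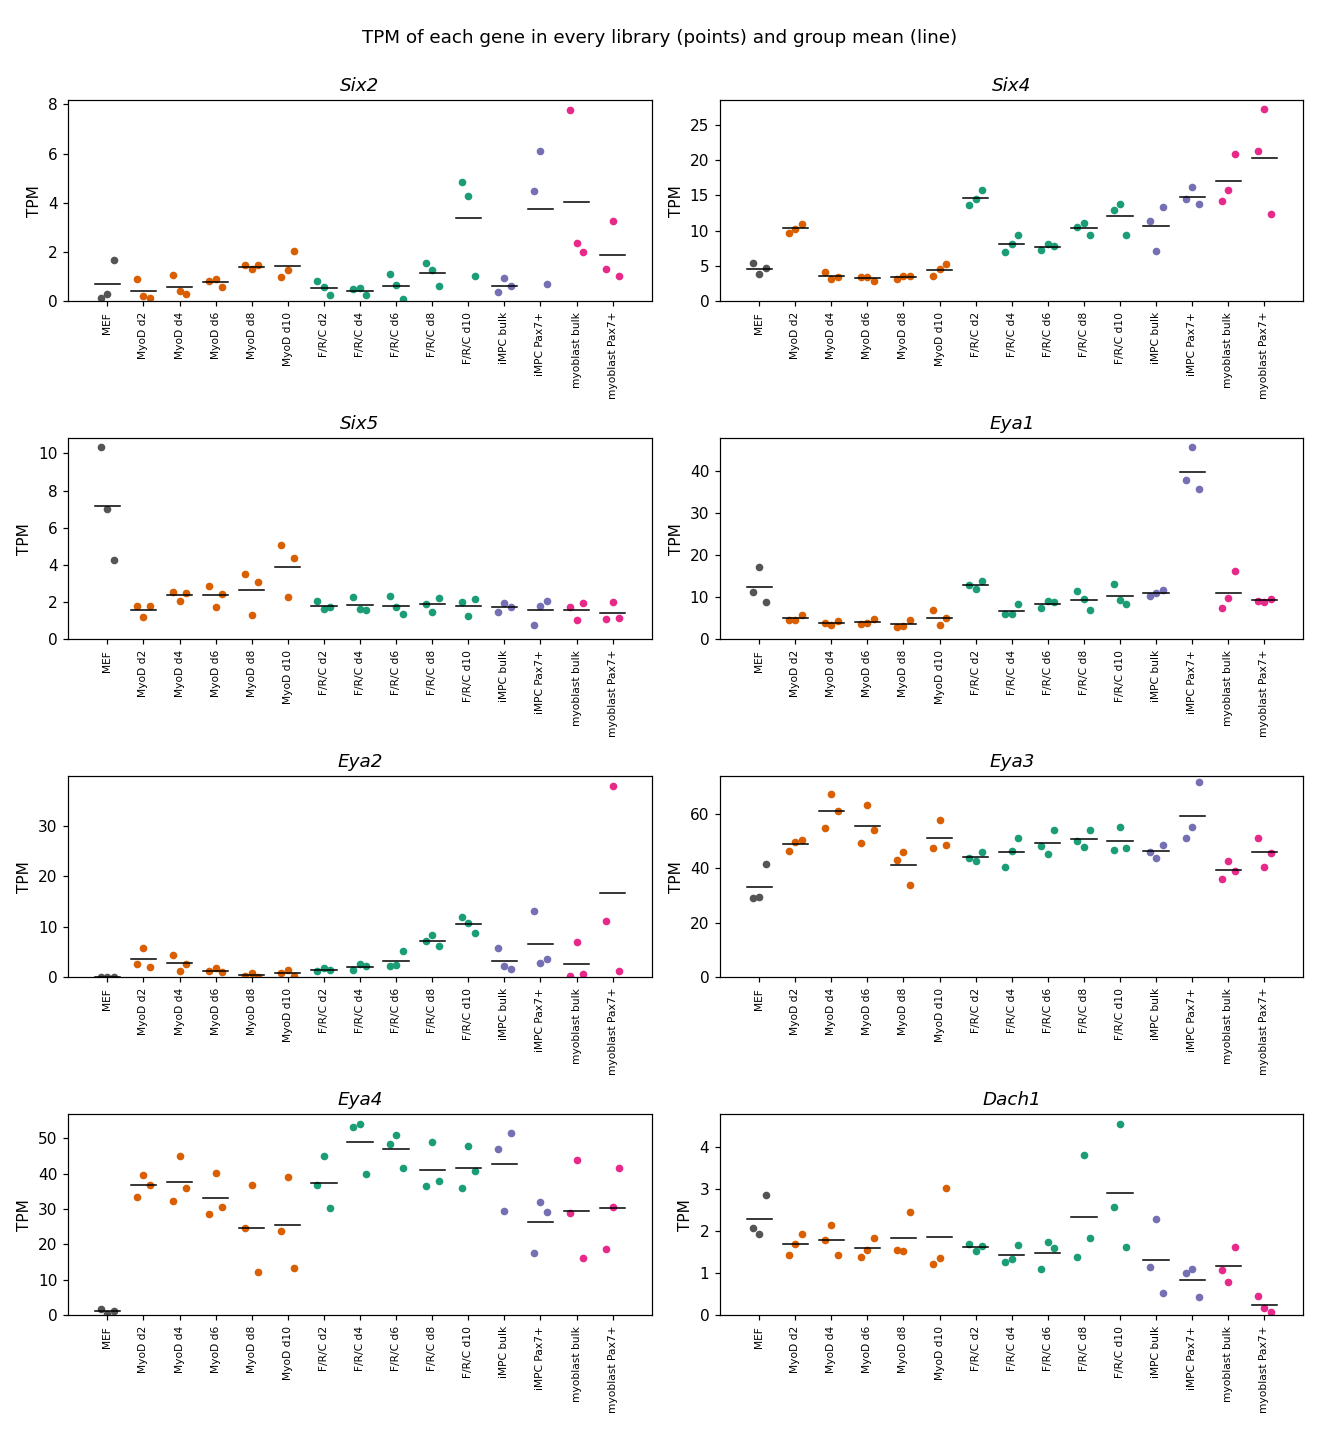
TPM of each of the 8 genes (vertical axes, each with its own linear scale from 0) in all 45 libraries (points), by group along the horizontal axis, with the mean of 3 libraries as a line. Eya4 is near 0 only in MEFs, Six5 is highest in MEFs, and Eya1 stands apart in Pax7+ iMPCs (35.7 to 45.7 TPM).

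Six4, a homeodomain factor with a known part in muscle formation, rose early and then parted between the arms. The MEFs held 5.368, 3.872 and 4.686 TPM, and day 2 of MyoD alone held 9.731, 10.268 and 10.994, with no overlap (log2 fold change 1.35, SE 0.20, adjusted p = 3.2e-06). From day 4 to day 10 the MyoD-alone means lay between 3.27 and 4.47 TPM and no difference from MEFs was called. Within that arm, Six4 fell by 1.32 on the log2 scale from day 2 to day 10 (SE 0.20, adjusted p = 4.9e-05).

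With F/R/C, Six4 held 13.625, 14.442 and 15.828 TPM on day 2, above all 3 libraries of MyoD alone, though the fitted difference was not called (log2 fold change 0.43, adjusted p = 0.19). The F/R/C libraries were called higher at days 4, 6, 8 and 10, by 1.22, 1.20, 1.51 and 1.42 (largest adjusted p = 5.9e-05). On day 10 the libraries held 13.009, 13.825 and 9.356 TPM against 3.571, 4.618 and 5.234, so the arms did not overlap. The increase of the difference from day 2 to day 10 was 0.99 (SE 0.28, adjusted p = 0.025), just under the minimum fold. It passed both thresholds with DESeq2 (1.06, adjusted p = 0.0058).

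Six5, a homeodomain gene that lies beside the myotonic dystrophy kinase gene Dmpk, went the other way. It was highest in MEFs, at 10.331, 6.998 and 4.242 TPM, and held 1.799, 1.216 and 1.786 on day 2 of MyoD alone. The MEF libraries did not overlap those of day 2 (log2 fold change -1.98, SE 0.36, adjusted p = 7.2e-05). With F/R/C its group means were 1.79 to 1.88 TPM, and it was called lower than in MEFs on all 5 days, by 1.73 to 1.91 on the log2 scale.

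With MyoD alone, Six5 rose by 1.17 from day 2 to day 10 (SE 0.36, adjusted p = 0.030), and on day 10 it was no longer called against MEFs (-0.81, adjusted p = 0.077). It was then lower with F/R/C, at 1.980, 1.265 and 2.172 TPM against 5.079, 2.282 and 4.361, and the groups did not overlap (-1.10, SE 0.35, adjusted p = 0.013). That call was lost without replicate 1 (-0.76, adjusted p = 0.13) or replicate 3 (-0.95, adjusted p = 0.059) of MyoD alone, without replicate 2 of F/R/C (-0.81, adjusted p = 0.12), and in a fit of only these 6 libraries (adjusted p = 0.075). The neighbour Dmpk moved the opposite way against MEFs, up by 3.33 with MyoD alone on day 10 (SE 0.40, adjusted p = 9.1e-08) and by 2.53 with F/R/C (SE 0.39, adjusted p = 2.6e-06). MEFs and the 2 arms on day 10 had the same order in Six5 and in summed fibroblast markers (Thy1, Col1a1, Col1a2, Pdgfra, Pdgfrb, Dcn and Lum). The markers summed to 5610 to 6360 TPM in MEFs, 4360, 1080 and 4580 in replicates 1, 2 and 3 of MyoD alone on day 10, and 748, 273 and 1560 with F/R/C. Over other groups the order did not hold. Mean sums of 2120 on day 2 of MyoD alone, 861 on day 10 with F/R/C and 11.4 in bulk myoblasts went with Six5 means of 1.60, 1.81 and 1.57 TPM. The single markers were mixed: between the arms on day 10, Thy1 (-2.04) and Col1a2 (-2.61) were called lower with F/R/C, Lum was called higher (3.56), and the median log2 fold change of the 7 was 0.14. Their part in the Six5 result was not tested.

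Six2, best known for keeping nephron progenitors undifferentiated, was low and uneven between replicates. Day 10 with F/R/C held 4.856, 4.261 and 1.040 TPM, while day 2 held 0.817, 0.580 and 0.254 and the MEFs 0.131, 0.280 and 1.696. Day 10 overlapped the MEFs through 1 library on each side, and it lay above day 2 in all 3 libraries. Six2 was called higher on day 10 than in MEFs (log2 fold change 2.32, SE 0.84, adjusted p = 0.021) and than on day 2 (2.60, SE 0.85, adjusted p = 0.021). The first of these calls was lost without MEF replicate 1 (1.91, adjusted p = 0.082), MEF replicate 2 (2.06, adjusted p = 0.079) or F/R/C replicate 1 (2.02, adjusted p = 0.065) and in a fit of only the compared groups (adjusted p = 0.087). Summed markers of nephron progenitors (Cited1, Osr1, Wt1 and Sall1) were 59.5, 49.4 and 35.3 TPM on day 10 with F/R/C. On day 10 of MyoD alone they were 10.6, 12.3 and 11.6, where the Six2 mean was 1.44 TPM against 3.39 with F/R/C. On days 4, 6 and 8 their mean sums were also higher with F/R/C (46.7, 50.5 and 61.4 against 9.29, 9.67 and 10.1). The Six2 means on those days were lower with F/R/C (0.437, 0.619 and 1.15 TPM against 0.585, 0.786 and 1.41), though not called. In MEFs the nephron marker sums were 81.5, 10.6 and 6.74, and the MEF library with the most Six2 had the lowest sum. The part of such cells in the Six2 values was not tested.

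Eya2, a co-activator expressed in somites and in limb muscle precursors, ran from 0 to 37.9 TPM over the 45 libraries. The 3 MEF libraries together held 1 Eya2 read. With MyoD alone it was 2.694, 5.850 and 2.113 TPM on day 2 and then ran down to 0.222, 0.816 and 0 on day 8 and 0.907, 1.370 and 0.338 on day 10. With F/R/C the course was the reverse, from 1.205, 1.868 and 1.365 TPM on day 2 to 7.121, 8.348 and 6.162 on day 8 and 11.932, 10.849 and 8.821 on day 10.

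The arms did not overlap for Eya2 on day 2, when MyoD alone was higher, nor on days 6, 8 and 10, when F/R/C was higher. The difference was called on day 8 (log2 fold change 4.18, SE 1.05, adjusted p = 0.0029) and on day 10 (3.96, SE 1.02, adjusted p = 0.0025), and was not called on day 2 (-2.13, adjusted p = 0.19), day 4 (-0.21, adjusted p = 0.90) or day 6 (1.72, adjusted p = 0.18). The change of the F/R/C effect from day 2 to day 10 was itself tested and came to 6.09 (SE 1.41, adjusted p = 0.0096). Within the F/R/C arm, day 10 was higher than day 2 by 4.04 (SE 1.03, adjusted p = 0.0040).

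Because MEFs held a single Eya2 read, its ratio to MEFs, in counts scaled to library size (CPM), is given with a 95% exact interval that covers counting error only. The ratio was 166 (29.5 to 6610) on day 2 of MyoD alone and 37.5 (6.39 to 1510) on day 10. With F/R/C it was 38.5 (6.55 to 1560) on day 2 and 628 (112 to 24800) on day 10. In edgeR's fit Eya2 was called against MEFs on all days of F/R/C and on days 2, 4, 6 and 10 of MyoD alone. On day 10 of MyoD alone (adjusted p = 0.025) the call was lost without any 1 of the 3 MEF libraries (adjusted p of 0.057, 0.093 and 0.073) and without replicate 1 or 2 of that group (0.055 and 0.12).

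Eya2 reads were estimated on several transcripts, among them a 369-base processed transcript without a coding sequence. That transcript took 47.0% of the Eya2 level on day 2 with F/R/C and 26.8% with MyoD alone, on average over libraries. On day 10 with F/R/C it took 18.8%, while a coding transcript of 2447 bases took 68.8% (7.395 TPM). The late level with F/R/C was therefore mostly assigned to a coding form, within what division of reads between transcripts allows.

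Eya1, a co-activator and phosphatase known from ear, kidney and muscle development, was lower with MyoD alone than in MEFs on each of the 5 days, by 1.00 to 1.78 on the log2 scale (largest adjusted p = 0.0013). The MEFs held 11.313, 17.124 and 8.766 TPM and day 4 of MyoD alone 3.764, 3.466 and 4.269, without overlap. With F/R/C no Eya1 difference from MEFs was called on any day (log2 fold changes -0.70 to 0.07, all under the minimum fold). On day 4, however, the F/R/C libraries held 6.046, 6.004 and 8.304 TPM and all lay below the MEFs.

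Eya1 was the member called between the arms on all 5 days, higher with F/R/C by 1.07, 1.09, 1.16, 1.27 and 1.15 on days 2, 4, 6, 8 and 10 (largest adjusted p = 0.0039). On day 2 the libraries held 12.836, 12.030 and 13.829 TPM with F/R/C and 4.673, 4.633 and 5.763 with MyoD alone. The arms did not overlap on any day, and the effect changed by only 0.08 from day 2 to day 10 (SE 0.33, adjusted p = 0.91). On day 10 the fold fell just under the minimum without F/R/C replicate 1 (0.99, adjusted p = 0.0041) and on the log2(TPM + 1) scale (0.90, adjusted p = 0.0027). Proliferation markers (Mki67, Top2a, Ccnb1 and Cdk1) were also higher with F/R/C on day 10, with sums of 417, 333 and 183 TPM against 151, 17.0 and 151. Over the 15 group means their log2 sum and Eya1 had a Pearson r of 0.91, as a description. Not all groups kept this order: bulk iMPCs had a mean sum of 385 TPM and MEFs 206, at Eya1 means of 11.0 and 12.4. In sorted myoblasts, sums of 473, 386 and 209 went with Eya1 at 9.177, 8.831 and 9.702 TPM. The part of cycling cells in the Eya1 values was not tested.

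Eya3, the broadly expressed member, was the most even, with a group mean from 33.3 ± 7.06 TPM in MEFs up to 61.1 ± 6.16 after 4 days of MyoD alone. It was above MEFs with an adjusted p under 0.05 on every day in both arms, but passed the minimum fold only on day 4 of MyoD alone (1.02, SE 0.12, adjusted p = 5.8e-08). There the libraries held 54.895, 67.205 and 61.162 TPM against 29.014, 29.398 and 41.435, with no overlap. A processed transcript that codes for no protein took 21.9% of the Eya3 level over the 45 libraries.

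Dach1, the co-repressor of the set, stayed low, between 0.0689 and 4.56 TPM in single libraries. No difference from MEFs was called on any day in either arm, and none between the arms. Its highest mean, 2.92 ± 1.49 TPM with F/R/C on day 10, rested on libraries of 2.577, 4.559 and 1.630 TPM that overlapped the MEFs at 2.081, 1.923 and 2.857.

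**Figure D2:**
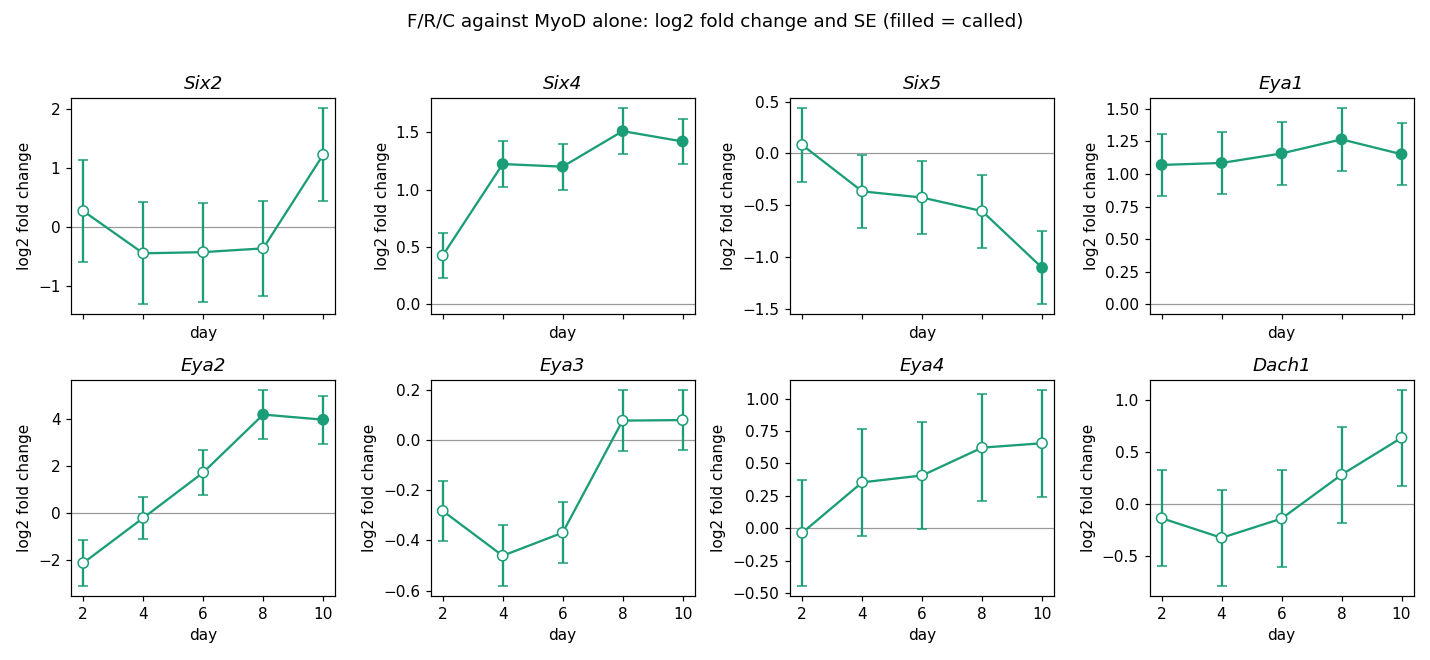
Log2 fold change of MyoD with F/R/C over MyoD alone (vertical axes, each with its own scale) by day (horizontal axis) for the 8 genes, with bars of 1 SE from edgeR's fit and filled points where the difference was called. Eya1 is filled on all 5 days near 1.1 to 1.3, Six4 from day 4, Eya2 on days 8 and 10, and Six5 on day 10 below 0.

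Between the arms, 1 of the 8 genes was called on day 2 (4.93% of all genes tested were called, either way), 2 on day 4 (13.2%), 2 on day 6 (15.4%) and 3 on day 8 (18.7%), all of them higher with F/R/C. On day 10, 3 were called higher and 1 lower (23.3%), and in the average over the 5 days Six4 (1.16), Eya1 (1.15) and Eya2 (1.51) were called higher and none lower (22.1%). With limma on log2(TPM + 1), Eya1 fell just under the minimum fold in that average (0.96, adjusted p = 1.5e-09). The change of the effect from day 2 to day 10 was called for 1 (6.01%). The median log2 fold change of the 8 genes on day 10 was 0.90, against -0.07 over all genes tested.

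Against MEFs, MyoD alone gave 3 higher and 2 lower on day 2 (22.4%), the same numbers on day 4 (28.3%), 2 and 2 on day 6 (27.7%), 1 and 2 on day 8 (20.8%), and 2 and 1 on day 10 (18.9%). MyoD with F/R/C gave 3 higher and 1 lower on day 2 (20.4%) and day 4 (31.3%), 2 and 1 on day 6 (32.2%), 3 and 1 on day 8 (31.7%), and 4 and 1 on day 10 (34.8%). The 5 genes of the last count were Six2, Six4, Eya2 and Eya4, higher, and Six5, lower. From day 2 to day 10, Six5 rose and Six4 fell with MyoD alone (6.26% called), and Six2 and Eya2 rose with F/R/C (16.0%).

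Added together, Eya1 to Eya4 came to 46.8 ± 4.57 TPM in MEFs, of which Eya3 made up 70.7% and Eya4 2.36%. On day 2 the sum was 94.1 ± 6.53 TPM with MyoD alone and 95.8 ± 5.12 with F/R/C, and Eya4 made up 39.0% and 38.7% of it. On day 10 the sums were 82.7 ± 17.5 and 112 ± 9.49 TPM, and the ranges of the arms did not overlap (67.1 to 102 and 106 to 123). The Six-family genes measured here summed to 12.5 ± 2.87 TPM in MEFs, where Six5 made up 56.0%, and on day 2 Six4 made up 83.7% in the MyoD-alone arm and 86.1% in the F/R/C arm.

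**Figure D3:**
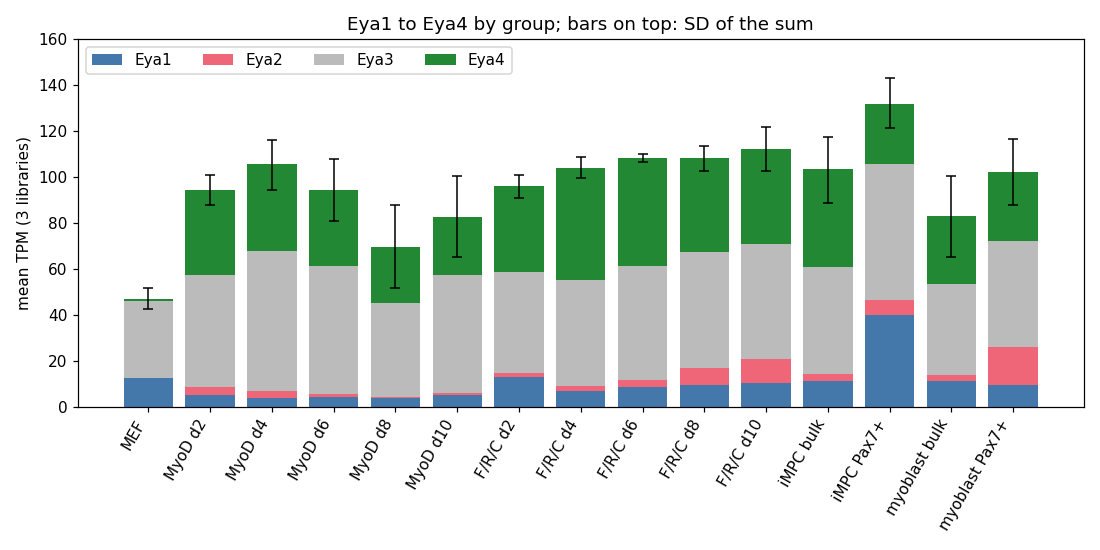
Mean TPM of Eya1, Eya2, Eya3 and Eya4 stacked by group (vertical axis from 0, 3 libraries each), with bars of 1 SD of the summed level. The sum is lowest in MEFs at 46.8 TPM, almost without Eya4, and highest in Pax7+ iMPCs at 132 TPM, where Eya1 makes up 30.3%.

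In established cells, Eya1 set the sorted Pax7-GFP+ iMPCs apart. They held 37.893, 45.688 and 35.741 TPM, against 10.316, 10.991 and 11.730 in bulk iMPCs and 9.177, 8.831 and 9.702 in sorted myoblasts. No library of any other group reached this range, the next highest being 17.1 TPM in a MEF library. Eya1 was higher than in bulk iMPCs by 1.59 (SE 0.24, adjusted p = 3.0e-06) and than in sorted myoblasts by 2.18 (SE 0.24, adjusted p = 1.9e-08), the second a comparison of 2 sorted groups with the same length setting. Both calls stood under every alternative run for these comparisons, including each library left out in turn. Proliferation markers summed to 802, 742 and 899 TPM in the sorted iMPCs, to 241, 518 and 397 in the bulk iMPCs and to 473, 386 and 209 in the sorted myoblasts.

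**Figure D4:**
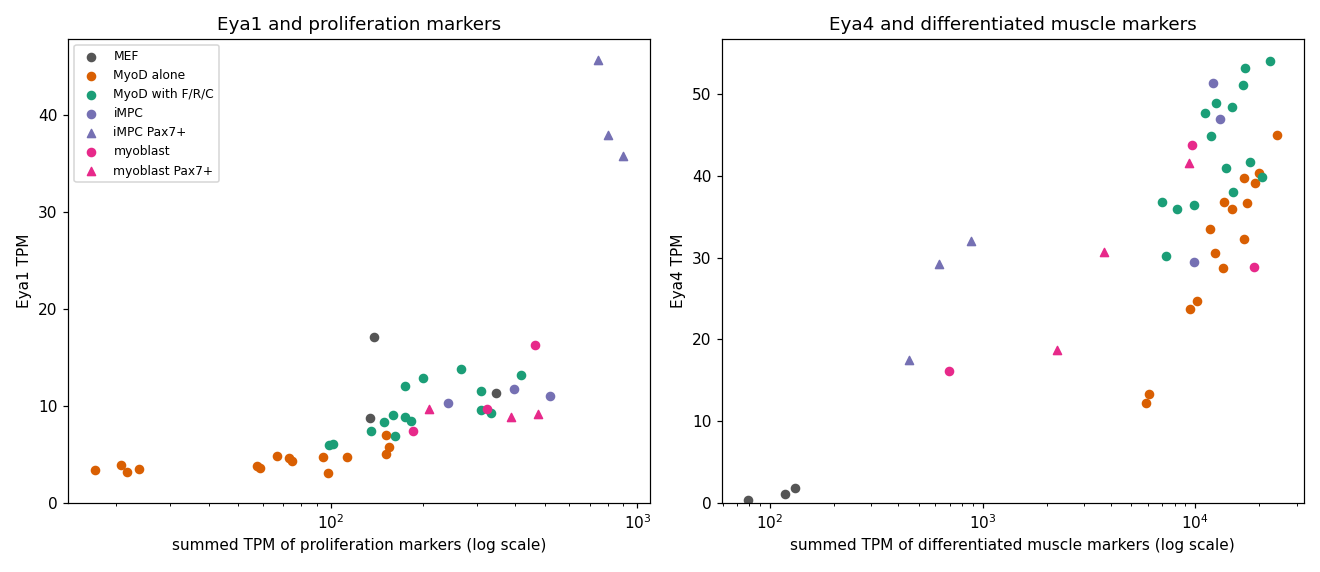
Left, Eya1 TPM (linear axis) against the summed TPM of 4 proliferation markers (log axis), and right, Eya4 TPM against the summed TPM of 7 differentiated muscle markers, for all 45 libraries coloured by treatment, with triangles for sorted cells. The 3 Pax7+ iMPC libraries have the highest Eya1 and proliferation sums (742 to 899 TPM), and the MEFs have the lowest Eya4 and muscle sums.

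Six2 was also called higher in sorted than in bulk iMPCs, at 4.492, 6.096 and 0.689 TPM against 0.359, 0.956 and 0.610 (2.87, SE 0.83, adjusted p = 0.0051). The groups overlapped through replicate 3 of the sorted cells. These 2 calls, Eya1 and Six2, were the only ones among the 8 genes in that comparison (30.3% of all genes called). Eya4 lay lower in the sorted iMPCs, at 17.465, 32.078 and 29.231 TPM against 46.979, 29.477 and 51.366, and was not called (-0.95, SE 0.41, adjusted p = 0.057). It was called without bulk iMPC replicate 2 (-1.09, adjusted p = 0.049).

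Between sorted iMPCs and sorted myoblasts, Dach1 was called besides Eya1 (30.0% of all genes called). Dach1 held 1.007, 1.101 and 0.432 TPM in the iMPCs and 0.452, 0.177 and 0.069 in the myoblasts, with overlap only between the lowest iMPC and the highest myoblast library (1.89, SE 0.51, adjusted p = 0.0026). Sorted myoblasts also had less Dach1 than bulk myoblasts, at 1.086, 0.791 and 1.628 TPM (-2.33, SE 0.51, adjusted p = 0.0030), and those groups did not overlap. In fits of only the compared groups these adjusted p-values were 0.077 and 0.43.

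Eya2 was called higher in sorted than in bulk myoblasts (3.06, SE 0.94, adjusted p = 0.031; 6.23% of all genes called, Eya2 up and Dach1 down among the 8). Its libraries held 11.125, 37.946 and 1.296 TPM in the sorted cells and 0.293, 7.012 and 0.670 in the bulk cells, so the groups overlapped. The call was lost without sorted replicate 2 (1.63, adjusted p = 0.33), bulk replicate 1 (2.56, adjusted p = 0.13) or bulk replicate 3 (2.63, adjusted p = 0.11). The sorted replicate with the least Eya2 was the one with the highest muscle-marker sum (9370 TPM). Among the bulk replicates, the least Eya2 (replicate 1) also went with the highest sum (19000 TPM). Bulk replicate 3, however, held 0.670 TPM of Eya2 at the lowest sum (698), and replicate 2 held 7.012 at 9680. The part of muscle content in the Eya2 values was not tested. With replicate 3 of both myoblast groups left out, an alternative chosen after seeing the data, Eya2 was still called between sorted and bulk myoblasts (3.17, adjusted p = 0.037) and Dach1 was not (-1.67, adjusted p = 0.051). In the same fit Eya1 (2.44, adjusted p = 5.6e-09) and Dach1 (1.52, adjusted p = 0.022) were still called between the sorted groups.

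Bulk iMPCs differed from day 10 of F/R/C in Six2 alone among the 8 genes (9.57% of all genes called), lower by 2.25 on the log2 scale (SE 0.82, adjusted p = 0.048). They also differed from bulk myoblasts in Six2 alone (19.6% called), lower by 2.47 (SE 0.82, adjusted p = 0.020), where the myoblasts held 7.779, 2.361 and 2.018 TPM. The iMPC libraries did not overlap those of either group. The first call was lost without any 1 of the 3 bulk iMPC libraries or without replicate 1 or 2 of day 10 (adjusted p from 0.063 to 0.16), and the second without bulk myoblast replicate 1 (-1.57, adjusted p = 0.18) or bulk iMPC replicate 1 or 3 (adjusted p of 0.088 and 0.068).

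Six4 was highest in the myoblasts, at 21.254, 27.252 and 12.314 TPM in sorted and 14.254, 15.795 and 20.908 in bulk cells, against 14.436, 16.270 and 13.759 in sorted and 11.371, 7.126 and 13.413 in bulk iMPCs. In the order of group means, neighbours overlapped from sorted myoblasts (20.3 TPM) down to day 2 of MyoD alone (10.3), and the only gaps lay between that group and day 4 with F/R/C (8.18) and between day 6 with F/R/C (7.74) and MEFs (4.64). For Eya1 the only gap lay below the sorted iMPCs, for Eya4 it lay above the MEFs, for Eya2 it lay between days 10 and 8 of F/R/C, and no neighbours were separated for Six2, Six5, Eya3 or Dach1. Groups further apart in the order crossed 2 of these gaps. For Six4, bulk iMPCs reached down to 7.126 TPM, under the 9.457 of a day 4 library with F/R/C. For Eya2, sorted iMPCs, ranked below day 8, reached 13.14 TPM, and sorted myoblasts, ranked above day 10, reached down to 1.296.

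The genes outside the set whose log2 group means were most like those of a member were found over the 15 groups among 13644 genes with a mean of at least 1 CPM. Eya4 was most like the cardiac actin gene Actc1 (Pearson r = 0.988), the fast-fibre actinin gene Actn3 (0.982) and Fgf11 (0.981). Eya1 was most like Orc6, a subunit of the replication origin complex (0.983), Fam83d (0.976) and Cnot1 (0.969). Six4 was most like Slc38a6 (0.956), Tcf12, an E-protein partner of the myogenic factors (0.949), and Lama2, a laminin of the muscle basement membrane (0.946). Eya2 was most like Vwf (0.939), Six5 like Ptprj (0.926) and Eya3 like Cyp1a1 (0.918). Six2 had no gene above Cenpv (0.857), and Dach1 was most like Rps27rt (0.953), a copy of a ribosomal protein gene whose reads are uncertain. Among the members themselves, Six5 and Eya4 ran most opposite (r = -0.807), and Six4 and Eya1 most alike (0.673). These are descriptions over groups that share treatments.

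Among genes that work with or downstream of the network, a list of 12 muscle genes has known Six-family sites or dependence on Eya and Six-family factors. The list includes Myog, which is also counted among the myogenic factors below. Myog, Ckm and Tnnt3 are also among the differentiated muscle markers. Against MEFs on day 10, 10 of 12 were called higher with MyoD alone (median log2 fold change 8.27, against 0.01 over all genes, of which 14.3% were called higher) and 12 of 12 with F/R/C (8.38, against 0.08 and 19.0%). Leading them with MyoD alone were Tnnc2 (9.51, SE 1.08), Myl1 (9.37, SE 1.23) and Mylpf (8.93, SE 1.03), which encode a fast troponin and myosin light chains. Between the arms on day 10 the calcium-buffering gene Pvalb alone was called, higher with F/R/C (8.16, SE 1.31, adjusted p = 2.0e-05). In sorted against bulk iMPCs, 11 of 12 were called lower (median -4.01, against -0.13 over all genes, of which 20.5% were called lower), with Pvalb (-6.11), Ckm (-5.15) and Myl1 (-4.50) in the lead, while Eya1 and Six2 were higher in the same libraries. In sorted iMPCs against sorted myoblasts, 5 were called lower (17.6% of all genes), led by Mylpf (-3.16), and Pvalb higher (3.55).

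Of the Pax genes, which act with Eya and Six-family factors in muscle precursors, Pax7 was called higher with F/R/C than with MyoD alone on day 10 (9.44, SE 0.72, adjusted p = 6.4e-10) and Pax3 was not. In the average over 5 days Pax3 was called lower (-1.60, SE 0.43, adjusted p = 0.0016) and Pax7 was not called. Pax3 was very low in these cultures: with MyoD alone, Pax3 and Pax7 together had group means of 0.136 to 0.228 TPM. Bulk iMPCs had less Pax3 and Pax7 than bulk myoblasts (-4.48 and -2.99). Of 7 myogenic factors, Myf5 (9.39) and Myf6 (4.36) were called higher with F/R/C on day 10 (9.91% of all genes) and none lower. Against sorted myoblasts, sorted iMPCs had 6 of the 7 called lower (median -1.50, where 17.6% of all genes were called lower). Against bulk iMPCs, the sorted iMPCs had 4 called lower (median -1.55, where 20.5% were). No myogenic factor was called higher in either comparison.

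Of the 8 genes listed as growth and signalling targets of Eya and Six-family factors, 7 were tested. Between the arms on day 10, Igfbp5 was called higher with F/R/C (3.04, SE 0.63, adjusted p = 0.00033), and Ccnd1, a cell-cycle cyclin, and the neurotrophic factor gene Gdnf were called lower (-1.75 and -1.56), where 9.91% of all genes were called higher and 13.4% lower. Against MEFs on the same day with F/R/C, Igfbp5 was called higher (3.60), and Sall1 (-2.78), Gdnf (-2.73), Ccnd1 (-2.47) and Ezr (-1.94) were called lower, against 19.0% of all genes higher and 15.8% lower. Ccnd1 was lower in the arm in which Eya1, Eya2 and Six4 were higher.

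Of 10 co-repressors of Dach and Six-family factors, F/R/C lowered Skil alone on day 10 (-1.10, SE 0.25, adjusted p = 0.00081), where 13.4% of all genes were called lower. Sorted iMPCs had more Tle4 (3.61, SE 0.36, adjusted p = 2.3e-09) and Tle1 (1.90) and less Skil (-2.36) than sorted myoblasts, where 12.4% of all genes were called higher and 17.6% lower. Bulk iMPCs had less Skil (-1.82), Ski (-1.42) and Tle2 (-1.35), besides Tle1, than bulk myoblasts, and more Tle4 (2.04), where 8.70% of all genes were called lower and 10.9% higher. Of 4 other binding partners, Gnai2, a G-protein subunit that binds Eya2, was lower with F/R/C on day 10 (-1.28, SE 0.19, adjusted p = 8.5e-06; 13.4% of all genes), and Sobp, a gene for a protein that binds Six-family factors, was higher in sorted than in bulk iMPCs (2.35, SE 0.49, adjusted p = 2.0e-04; 9.88% of all genes). These lists are described by their counts, with no test of a list as a whole.

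Markers of several cell types outside the muscle and fibroblast lines were summed in every library. Endothelial markers (Pecam1, Cdh5 and Kdr) summed to at most 3.29 TPM in any library and epithelial markers (Epcam, Cdh1 and Krt8) to at most 8.27, in a library of day 8 with F/R/C. Neuronal markers (Tubb3, Elavl3 and Snap25) reached 158 TPM on day 4 with F/R/C, and macrophage and blood markers (Ptprc, Cd68 and Adgre1) 15.6 in MEFs. Their part in the members' values was not tested.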

How the data were processed

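RNA was measured in 45 mouse libraries prepared with a stranded poly(A) protocol and sequenced as single-end reads, per the labels' protocols. Per the submitters' processing notes, the tools were bcl2fastq 2.19, Trimmomatic 0.36, kallisto 0.44 and edgeR 3.28 with build GRCm38.p6; settings, strand use and transcript release were not given in the sources used here. The deposited tables hold, per transcript, estimated counts, TPM and an effective length set by the authors' fragment-length setting, per the file headers. Estimated counts and TPM were summed over the transcripts of each gene with the GENCODE M21 annotation (at least 99.4% of reads matched) and the sums of counts were rounded to whole numbers.

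Genes were kept with filterByExpr by group, scaled by TMM and tested with edgeR 4.0.16 (glmQLFit, glmQLFTest; R 4.3.3) in 1 fit of all 45 libraries with a coefficient per group (30 residual degrees of freedom), with Benjamini-Hochberg adjustment over 17325 genes. DESeq2 1.42.0 and limma 3.58.1 on log2(TPM + 1) served as alternatives, with RLE scaling, no filter, a replicate block, no minimum fold, fits of only the compared groups and each library left out. On simulated data for the day 10 comparison of the arms (16697 genes), 131 of 200 genes changed 4-fold were recovered (65.5%), with 4 false calls.

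Same-numbered libraries deviated together (correlation over 0.1 in every pair) between the arms on days 2, 4 and 6 (mean r of 0.364, 0.297 and 0.295) and between days 10 and 2 of MyoD alone (0.296), and the block changed no call of the 8 genes there. In the other comparisons they did not in every pair. Among the groups of the 5-day average, the mean r was still 0.321 over 135 pairs (-0.004 to 0.751). Same-numbered libraries were thus partly linked there, and the fit without a block treats them as separate. With the block, 3 members were called in that average, the same number as without it.

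The members and lists were chosen with earlier results of these data known. Named besides the members are, per member, the 3 genes most like it, per list and main comparison the called genes with the largest changes (up to 3 each way), and the label checks Myod1 and Pax7. Promoter sequences are RefSeq's. Other members of these families were not analysed here.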

Additional observations from a re-analysis of the deposited data

Results flagged for a closer look

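The effect of F/R/C on Eya2 differed between time points. On day 2 Eya2 was lower with F/R/C than with MyoD alone in all 3 libraries, with a log2 fold change of -2.13 that was not called (adjusted p = 0.19), and on day 10 it was higher in all 3, by 3.96. The difference of the 2 effects, tested as an interaction in edgeR's fit, was 6.09 (SE 1.41, adjusted p = 0.0096). It rests on 167 reads over the 3 libraries of MyoD alone on day 2 and 44 on day 10, and on 42 and 774 reads with F/R/C.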

How the results depend on the processing

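Changing the scaling, filter, tool, samples in the fit, minimum fold or unit reversed no called change of a member. The number of the 8 genes whose F/R/C effect changed between days 2 and 10 went from 1 (6.01% of all genes called) to 2 (Six4 added) under several alternatives. These were RLE scaling (5.73%), no filter (2.18%), no minimum fold (8.65%), a fit of only these groups (9.03%) and DESeq2 (9.16%). With the replicate number as a block it was also 2 (8.16%). The block also lost the call of Six2 in the last F/R/C cultures compared with MEFs (1.85, adjusted p = 0.05). It gained a call of Eya4 in sorted against bulk iMPCs (adjusted p = 0.033). By the rule of a correlation over 0.1 in every pair, the numbers do not pair the libraries in these comparisons. The block changed no other call. Without a minimum fold, 5 genes were called in the 5-day average (3 in the report; 61.5% of all genes) and 3 between bulk iMPCs and bulk myoblasts (1; 32.9% of all genes). In fits of only the compared groups, the count was 0 for bulk iMPCs against day 10 (7.75% of all genes called, 9.57% in the report). It was 0 for bulk iMPCs against bulk myoblasts (8.03%, 19.6%) and 1 for sorted iMPCs against sorted myoblasts (24.0%, 30.0%). For sorted against bulk myoblasts it was 0 (0%, 6.23%). In that last comparison edgeR called 0 of 14528 genes, with 1423 at an unadjusted p under 0.05, while DESeq2 on all libraries called 1390 and limma 1154. Bulk iMPCs against day 10 gave 0 with no filter (4.87% of all genes) and 2 with DESeq2 (10.6%). With limma on log2(TPM + 1), 2 were called between the arms on day 10 (4 in the report), where 16.6% of all genes were called (23.3%). Between the sorted groups 1 was called (2), with 20.3% of all genes (30.0%). Between sorted and bulk myoblasts 1 was called (2), with 6.66% of all genes (6.23%). With both replicate 3 myoblast libraries left out, chosen after seeing the data, sorted against bulk myoblasts gave 1 (7.81% of all genes). Leaving out 1 library at a time gave 2 to 4 for MyoD alone on day 10 against MEFs, 4 to 5 for F/R/C against MEFs, 3 to 5 between the arms on day 10, 3 in every fit of the average, 1 to 2 for the change between days, 0 to 2 for bulk iMPCs against day 10, 0 to 1 against bulk myoblasts, 2 between the sorted groups, 2 to 3 for sorted against bulk iMPCs and 1 to 2 for sorted against bulk myoblasts. With CPM in place of TPM, 7 of the 8 genes had the same highest group; Six2 did not. Few reads limit Six2, Dach1 and, in MEFs, Eya2, and 3 libraries a group limit all comparisons.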
